A study of Mus musculus with 8 samples.

Results

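Glycolysis genes and targets of the hypoxia-inducible factor (HIF) were followed in Neuro2a cells, a mouse neuroblastoma line, after transfection with plasmids for CRISPR activation. The 43 genes were taken by name from a list chosen with earlier results of these data known. All 43 were found among the 55367 genes of the count table. They comprise 17 glycolytic enzymes (lactate dehydrogenases included), 17 HIF targets outside glycolysis, and Hif1a itself. The other 8 are genes of glucose and lactate transport, glycolytic regulation, pyruvate dehydrogenase control and glycogen. In CRISPR activation a catalytically inactive Cas9, here sadCas9, is fused to the activator VP64 and brought to a gene by a single guide RNA (sgRNA). The CRISPRa cultures received 750 ng of sgRNA plasmid with 750 ng of sadCas9-VP64 plasmid. The no-sgRNA cultures received sadCas9-VP64 without an sgRNA, in an amount the labels do not give. The gene to be activated was Scn2a, a sodium channel subunit of neurons. Poly(A)-enriched RNA was counted in 3 CRISPRa libraries (replicates 2, 3 and 5) and 3 no-sgRNA libraries (replicates 2, 3 and 4).

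Glycolysis converts glucose to pyruvate in the cytosol, and lactate dehydrogenase then reduces pyruvate to lactate. HIF-1 is a heterodimer of HIF-1α, encoded by Hif1a, and ARNT. When oxygen is available, prolyl hydroxylases of the EGLN family mark HIF-1α for destruction through the VHL ubiquitin ligase, so HIF-1 activity is set largely at the level of the protein. Stabilised HIF-1 binds a short DNA element and raises transcription of most glycolytic enzymes, of glucose transporters and of genes for mitophagy, collagen modification and vessel growth. Tumour cells in culture, neuroblastoma lines among them, commonly use glycolysis also in the presence of oxygen.

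Most of the 43 genes were lower with CRISPRa. Of the 42 that passed the filter on low counts, 32 fell and 2 rose, Hif1a and Vegfa, at a Benjamini-Hochberg adjusted p under 0.05 in edgeR's quasi-likelihood test. Among all 15117 genes tested, 9.25% fell and 9.47% rose. Because the list was chosen with earlier results known, these shares are a description and not a test of the list. The median log2 fold change was -0.50 for both the 42 genes and the 16 tested enzymes and -0.53 for the 17 HIF targets, against -0.0071 over all genes tested. The groups did not overlap, with CRISPRa lower, for 33 of the 42 genes, against 18.7% of all genes tested. They did not overlap, with CRISPRa higher, for 2 genes, against 17.7%. For the other 7 genes the groups overlapped, while 36.4% of all genes tested had groups that did not overlap in either direction. Fewer cells with high expression and less RNA per cell cannot be told apart in these bulk libraries.

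The 5-base core of the HIF-binding element, ACGTG or GCGTG on either strand, was searched in the bases before the RefSeq start of each gene. RefSeq promoters on GRCm38.p6 were found for 39 of the 43 genes, and the most upstream RefSeq start was used. That start can lie inside the gene as counted. It was 46845804 for Ldha, counted from 46841475 on the plus strand. For Ankrd37 it was 45999850, and the gene was counted from 46005707 on the minus strand. ACGTG was present within 250 bases of the start in 8 of 14 HIF target promoters (57.1%) and in 5 of 17 enzyme promoters (29.4%), against 16.5% of 27025 promoters. GCGTG was present in 10 of 14 (71.4%) and 7 of 17 (41.2%), against 28.3%. The HIF targets were listed as known targets, and the 27025 promoters were not matched for expression or base content. These shares are therefore a description and not a test. The palindrome CACGTG reads as ACGTG on both strands and was counted once on each. The promoters below were chosen from the 3 HIF targets and the 2 genes of glucose metabolism with the largest decreases (Adm, Ndufa4l2, Ankrd37, Gbe1 and Aldoc), of which Ndufa4l2 is named only. Ldha, Pgk1 and the mitophagy gene Bnip3 were added after the motif counts were seen. Bases inside annotated exons were left out, each sequence is the longest remaining stretch on the gene's own strand, and capitals mark the motif on either strand. Adm is shown at chr7:110627407-110627656 (plus strand), Ankrd37 at chr8:45999868-46000100 (minus), Gbe1 at chr16:70313699-70313948 (plus) and Aldoc at chr11:78322823-78322967 (plus). Ldha is shown at chr7:46845554-46845803 (plus), Bnip3 at chr7:138909520-138909756 (minus) and Pgk1 at chrX:106186850-106187099 (plus).
Adm: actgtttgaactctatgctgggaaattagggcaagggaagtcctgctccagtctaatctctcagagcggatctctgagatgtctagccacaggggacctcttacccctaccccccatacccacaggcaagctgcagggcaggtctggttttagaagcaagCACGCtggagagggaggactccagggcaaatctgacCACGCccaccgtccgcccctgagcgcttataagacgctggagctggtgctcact
Ankrd37: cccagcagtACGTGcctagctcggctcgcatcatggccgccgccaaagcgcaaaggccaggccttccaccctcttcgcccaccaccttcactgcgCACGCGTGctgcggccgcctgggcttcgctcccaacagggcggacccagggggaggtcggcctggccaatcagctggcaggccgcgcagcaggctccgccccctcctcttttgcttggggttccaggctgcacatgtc
Gbe1: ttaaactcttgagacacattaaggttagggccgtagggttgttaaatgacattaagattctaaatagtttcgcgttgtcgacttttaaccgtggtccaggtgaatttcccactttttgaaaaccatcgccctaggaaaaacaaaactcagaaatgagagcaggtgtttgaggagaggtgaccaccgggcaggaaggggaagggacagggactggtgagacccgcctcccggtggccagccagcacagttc
Aldoc: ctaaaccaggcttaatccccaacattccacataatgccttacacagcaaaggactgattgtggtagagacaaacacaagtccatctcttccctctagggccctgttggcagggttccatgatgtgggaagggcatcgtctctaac
Ldha: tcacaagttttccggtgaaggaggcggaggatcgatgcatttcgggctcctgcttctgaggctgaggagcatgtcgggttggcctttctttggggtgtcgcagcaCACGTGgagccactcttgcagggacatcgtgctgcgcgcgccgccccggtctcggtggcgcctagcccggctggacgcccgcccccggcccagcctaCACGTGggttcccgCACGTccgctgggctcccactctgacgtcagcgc
Bnip3: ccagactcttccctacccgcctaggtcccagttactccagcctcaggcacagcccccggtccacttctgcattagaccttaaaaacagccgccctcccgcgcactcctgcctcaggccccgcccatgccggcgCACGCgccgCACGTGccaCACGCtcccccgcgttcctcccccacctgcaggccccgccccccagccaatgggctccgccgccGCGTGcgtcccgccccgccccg
Pgk1: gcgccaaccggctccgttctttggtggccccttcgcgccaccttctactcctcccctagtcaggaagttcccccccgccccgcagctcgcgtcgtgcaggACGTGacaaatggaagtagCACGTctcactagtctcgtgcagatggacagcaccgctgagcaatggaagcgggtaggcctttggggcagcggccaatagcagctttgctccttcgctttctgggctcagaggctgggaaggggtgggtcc
The Ldha promoter held 5 matches to ACGTG, all within 2 palindromes and a single further site, and the Bnip3 promoter held 2 to ACGTG and 3 to GCGTG. The 250 bases of Gbe1 held neither motif. The 145 bases shown for Aldoc held none either, but its full 250 bases held 1 GCGTG, in the part left out. A match is a run of letters and not a measured binding site.

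Total counts ran from 32269399 to 34248514 in the CRISPRa libraries and from 29739422 to 32377208 in the no-sgRNA libraries, so that 3 counts correspond to 0.0871 to 0.101 CPM. Scn2a stood at 7.12 to 8.55 CPM with CRISPRa and 4.11 to 6.50 CPM without the guide, without overlap (log2 fold change 0.48, edgeR adjusted p 0.0899). In the authors' deposited comparison of 8 samples, Scn2a was called higher (log2 fold change 0.62, Wald adjusted p 0.00138). All 10 genes of an interferon-response list rose, against 9.47% of all genes, and their summed level was 1367 to 1612 CPM with CRISPRa and 71.8 to 75.0 CPM without the guide. Their part in the decreases was not tested, and the guide and the added sgRNA plasmid cannot be told apart. Mitochondrially encoded transcripts took 1.25% to 1.30% of counts with CRISPRa and 1.04% to 1.22% without the guide. Of 15 sympathoadrenal neuroblastoma markers 13 were tested, 2 fell (Phox2a and Hand2) and 2 rose (Tubb3 and Chga), against 9.25% and 9.47% of all genes, and Hand1 stayed under 1 CPM. Their summed level was 2306 to 2599 CPM with CRISPRa and 2537 to 2732 CPM without the guide. The macrophage markers Adgre1, Itgam and Lyz2 and the fibroblast markers Col3a1 and Thy1 were at 0 counts in every library. The summed fibroblast list was at 121 to 125 CPM with CRISPRa and 109.9 to 123 CPM without the guide, most of it Pdgfrb. Of its 8 genes 5 were tested, 2 fell and 1 rose, against 9.25% and 9.47% of all genes. Of 6 macrophage markers only Cd68 could be tested, and it was not called. The summed endothelial list was at 8.42 to 11.6 CPM with CRISPRa and 10.1 to 13.7 CPM without the guide, with Kdr at 0. Of its 4 genes 3 were tested and 1, Cdh5, rose, against 9.47% of all genes. The part of these markers in the results was not tested. The labels do not say whether replicates were separate cultures, so the p-values measure the spread between these libraries, which may be technical.

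In each group 1 library stood apart from the other two. CRISPRa replicate 5 was the lowest of the 6 libraries for 14 of 16 enzymes (87.5%) and 13 of 17 HIF targets (76.5%), against 22.9% of all genes tested. No-sgRNA replicate 4 was the highest of the 6 for 15 of 16 enzymes (93.8%) and 14 of 17 HIF targets (82.4%), against 25.0% of all genes. Both therefore widen the difference between the groups, and the fold changes of the called genes are also given for the 4 libraries numbered 2 and 3. Those 4 libraries leave out the spread within groups that CRISPRa replicate 5 and no-sgRNA replicate 4 bring. An adjusted p there can therefore be smaller at a smaller fold change, and is not stronger support. In those 4 libraries 29 of the 42 genes fell, against 9.08% of all genes, and the same 2 rose, against 9.41%. The median log2 fold change of the 42 genes was then -0.28, smaller than the -0.50 of the 6 libraries. All 32 genes that fell in the 6 libraries had a smaller decrease in the 4, and 3 of them, Slc2a1, Ankrd37 and Mxi1, no longer passed. Values below are CPM scaled by trimmed mean of M-values (TMM), in the order CRISPRa replicates 2, 3 and 5 and then no-sgRNA replicates 2, 3 and 4.

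**Figure D1:**
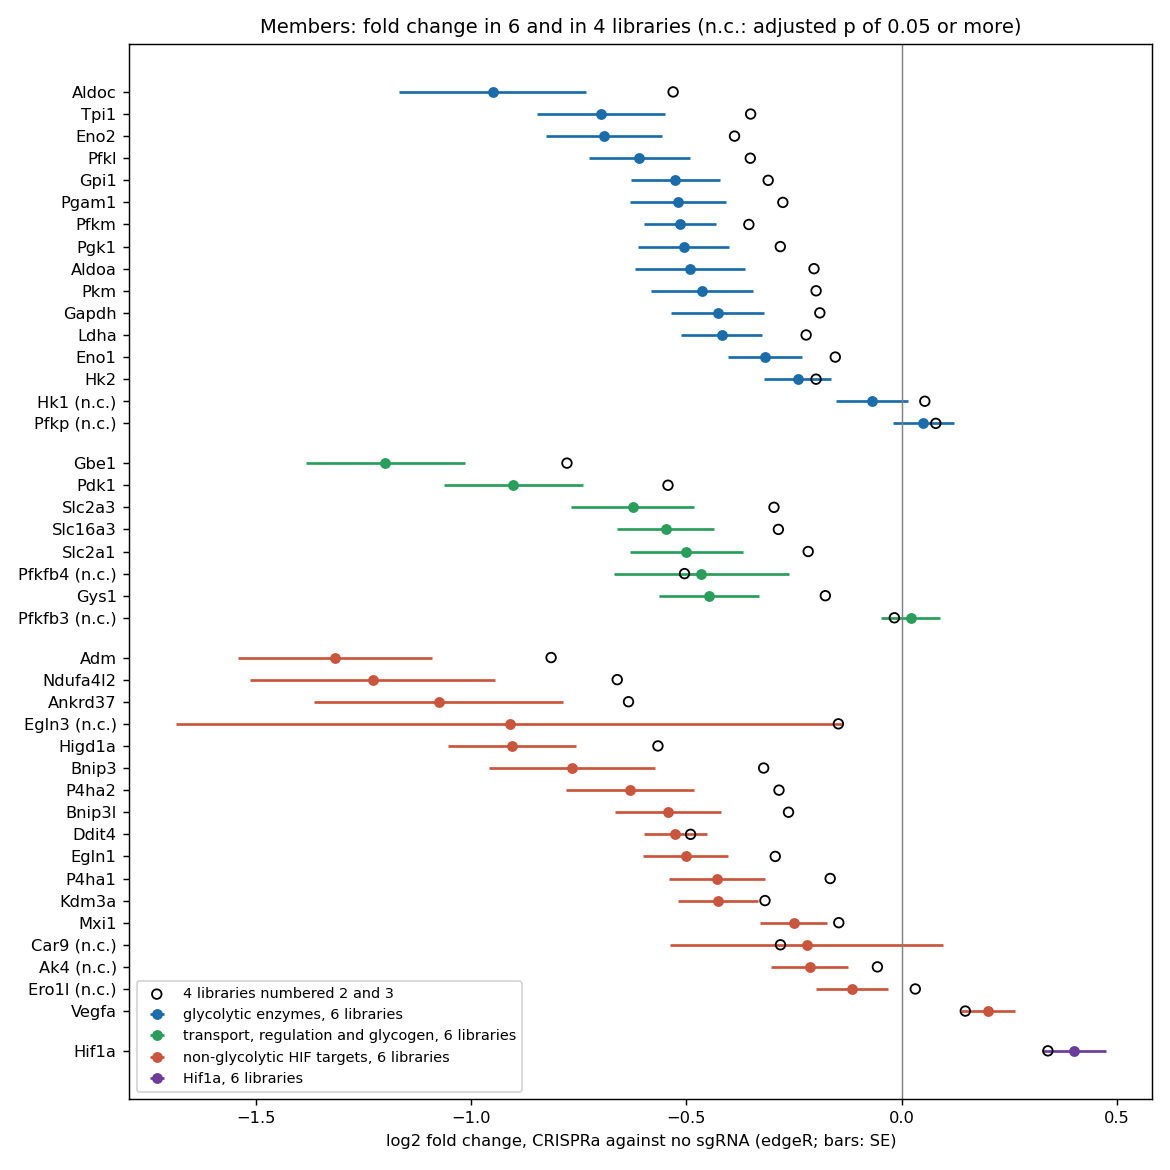
Log2 fold change of CRISPRa against no sgRNA for the 42 tested genes, by group, with its SE in 6 libraries (filled points) and in the 4 libraries numbered 2 and 3 (open circles). Nearly all filled points lie left of 0, Hif1a and Vegfa lie right of it, and Pfkp and Pfkfb3 lie slightly right of it. Most open circles lie closer to 0 than the filled points, and those of Hk1, Pfkp and Ero1l lie slightly right of 0.

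Glucose enters through the transporters encoded by Slc2a1 (GLUT1) and Slc2a3 (GLUT3). Slc2a3 stood at 357, 363 and 227 CPM against 455, 430.3 and 574 CPM. All 3 CRISPRa libraries were below all 3 controls, and the log2 fold change was -0.62 with an SE of 0.14 (adjusted p 0.00707). In the 4 libraries numbered 2 and 3 it was -0.30 (adjusted p 5.56e-05), and with DESeq2 on 6 libraries the call was lost (adjusted p 0.0517). Slc2a1 also fell (-0.50, SE 0.13, adjusted p 0.0153), though in the 4 libraries it did not pass (-0.22, adjusted p 0.0726). Slc16a3, which encodes the lactate exporter MCT4, was at 507, 513 and 388 CPM against 629, 616 and 815 CPM. It fell by 0.55 on the log2 scale (SE 0.11, adjusted p 0.00329), and by 0.29 in the 4 libraries (adjusted p 2.58e-05).

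The first steps of glycolysis trap and rearrange glucose. Hk2, the hexokinase isoform that HIF-1 is known to induce, stood at 117, 129 and 134 CPM against 143, 139 and 166 CPM. Its decrease was among the smallest (-0.24, SE 0.08, adjusted p 0.0417), CRISPRa replicate 5 was its highest CRISPRa library, and the call was lost in 4 of the 6 fits that left out a library. Without no-sgRNA replicate 4 it was -0.16 (adjusted p 0.149), without no-sgRNA replicate 2 -0.27 (0.0545), without CRISPRa replicate 2 -0.18 (0.203) and without CRISPRa replicate 3 -0.25 (0.107). Restricted to the 4 libraries it was -0.20 (0.0187). Hk1, the housekeeping hexokinase, overlapped between groups, with a log2 fold change of -0.07 (SE 0.08, adjusted p 0.612). Gpi1, the isomerase that follows, fell from 1474, 1532 and 1765 CPM in the controls to 1222, 1200.2 and 891 CPM (-0.53, SE 0.10, adjusted p 0.00259). Gpi1 measured -0.31 in the 4 libraries (adjusted p 2.05e-06).

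The 3 phosphofructokinase genes, whose product catalyses the committed step, did not move alike. Pfkl, the liver-type subunit, stood at 438, 435 and 303 CPM against 556, 559 and 679 CPM, a log2 fold change of -0.61 (SE 0.12, adjusted p 0.00225). Pfkm, the muscle-type subunit, stood at 163, 152 and 131 CPM against 201, 202 and 235 CPM, a log2 fold change of -0.51 (SE 0.08, adjusted p 0.000699). Both were below every control in all 3 CRISPRa libraries, and in the 4 libraries Pfkl was at -0.35 and Pfkm at -0.36 (adjusted p 2.39e-06 and 4.34e-05). Pfkp, the platelet-type subunit, overlapped at 709, 678 and 613 CPM against 690.5, 624 and 618 CPM (0.05, SE 0.07, adjusted p 0.678). Per kilobase of exon, Pfkp made up 31.6%, 31.4% and 35.0% of the phosphofructokinase level with CRISPRa and 26.4%, 24.4% and 21.1% without the guide. Pfkl was the most abundant of the 3 per kilobase in the controls, at 89.6 CPM per kilobase, and Pfkp the least, at 48.1. Without division by length Pfkp was the highest in the controls, at a mean of 644 CPM against 598 for Pfkl and 213 for Pfkm. The summed exon lengths used were 13401 bases for Pfkp, 6675 for Pfkl and 3340 for Pfkm. The order per kilobase and the shares depend on these lengths. Pfkfb3, whose product makes the activator fructose 2,6-bisphosphate, was level at 74.2 to 81.1 CPM with CRISPRa and 75.9 to 77.4 CPM without the guide (0.02, SE 0.07, adjusted p 0.876). Pfkfb4 of the same family was low, at 4.13 to 8.65 CPM, and its groups overlapped (adjusted p 0.128).

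In the 6 libraries every tested enzyme from aldolase to lactate dehydrogenase fell. Without no-sgRNA replicate 4, Aldoa, Gapdh, Eno1 and Pkm were no longer called. Aldoc, the brain-type aldolase, showed the largest decrease among the enzymes. It stood at 79.6, 70.0 and 32.1 CPM against 104, 113 and 135 CPM (-0.95, SE 0.22, adjusted p 0.00707), and CRISPRa replicate 5 was at less than the level of either other CRISPRa library. In the 4 libraries its log2 fold change was -0.53 (adjusted p 1.21e-05), while DESeq2 on 6 libraries lost the call (adjusted p 0.0754). Per kilobase Aldoc was a minor form, 2.05% to 3.29% of the aldolase level with CRISPRa and 3.83% to 4.00% without the guide, beside Aldoa (-0.49, SE 0.13, adjusted p 0.0149, and -0.20 in the 4 libraries).

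Tpi1, triosephosphate isomerase, stood at 908, 886 and 556 CPM against 1128, 1161 and 1521 CPM, and Eno2, the neuronal enolase, at 202, 200.5 and 131 CPM against 264, 263 and 334 CPM. Both fell by nearly equal amounts, 0.70 (SE 0.15, adjusted p 0.00449) and 0.69 (SE 0.13, adjusted p 0.00239) on the log2 scale. Tpi1 measured -0.35 and Eno2 -0.39 in the 4 libraries (adjusted p 6.33e-07 and 4.21e-06). Eno1, the ubiquitous enolase and the most abundant of the 43 genes by CPM, fell less, by 0.32 (SE 0.09, adjusted p 0.0176), and by 0.15 in the 4 libraries. Gapdh, often used as a reference gene, was at 2060.1, 2015 and 1495 CPM against 2323, 2331 and 2839 CPM. It fell by 0.43 on the log2 scale (SE 0.11, adjusted p 0.0119), and without no-sgRNA replicate 4 the adjusted p was 0.0554. Its log2 fold change in the 4 libraries was -0.19 (adjusted p 0.000187).

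Pgk1, phosphoglycerate kinase (chromosome X, 106187100 to 106203699, GRCm38), stood at 1529, 1459 and 1091 CPM against 1810.2, 1827 and 2157 CPM. CRISPRa replicates 2 and 3 lay close together and replicate 5 below them, all 3 under the lowest control (-0.51, SE 0.11, adjusted p 0.00391). Pgam1, phosphoglycerate mutase, was at 285, 292 and 207 CPM against 353, 347 and 426 CPM (-0.52, SE 0.11, adjusted p 0.00459). Both measured -0.28 in the 4 libraries (adjusted p 5.21e-06 for Pgk1 and 0.000132 for Pgam1). Pkm, pyruvate kinase, fell by 0.46 (SE 0.12, adjusted p 0.0129), and by 0.20 in the 4 libraries. Ldha (chromosome 7, 46841475 to 46855627), whose product makes lactate, was at 2191, 2138 and 1677 CPM against 2526, 2528 and 2969.6 CPM (-0.42, SE 0.09, adjusted p 0.0063, and -0.22 in the 4 libraries with an adjusted p of 2.98e-05). Ldhb, the other lactate dehydrogenase subunit, had 6 counts in CRISPRa replicate 3 and 0 in the other libraries and was not tested.

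Added together, the 17 enzymes took 1.67% ± 0.276 of all counts with CRISPRa and 2.23% ± 0.206 without the guide (SD, n = 3). Of the 17, 14 fell and none rose, against 9.25% and 9.47% of all genes, 2 were not called and 1 was not tested. DESeq2 called 11 of them lower, against 9.74% of all genes, and without no-sgRNA replicate 4 edgeR called 9 lower, against 6.3%. In the 4 libraries 14 fell, against 9.08% of all genes, with a median of -0.25. The levels of Pgk1, Pgam1, Eno1, Pkm and Gapdh carry some uncertainty, because between 25.1% and 53.9% of their 50-base words in GENCODE M21 transcripts also occur in other genes, for Pgk1 mainly in Pgk1-rs7.

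Downstream of pyruvate, Pdk1 encodes the kinase that switches off pyruvate dehydrogenase and so keeps pyruvate from the citrate cycle. Pdk1 (chromosome 2, 71873224 to 71903858) stood at 86.7, 87.7 and 50.3 CPM against 133, 121 and 166 CPM. It was 1.87-fold lower with CRISPRa (log2 -0.90, SE 0.16, adjusted p 0.0014), and in the 4 libraries the log2 fold change was -0.54 (adjusted p 1.63e-06). Gbe1, the glycogen branching enzyme (chromosome 16, 70313949 to 70569716), had the largest decrease outside the HIF target group. It was at 14.0, 14.0 and 8.69 CPM against 24.5, 23.6 and 36.3 CPM, 2.30-fold lower (log2 -1.20, SE 0.18, adjusted p 0.000435). In the 4 libraries its log2 fold change was -0.78 (adjusted p 4.51e-05), the largest decrease of a gene of glucose metabolism there too. Gys1, the muscle-type glycogen synthase, fell by 0.45 (SE 0.12, adjusted p 0.0149), and by 0.18 in the 4 libraries (adjusted p 0.0407). Of these 8 genes of transport, regulation, pyruvate dehydrogenase control and glycogen, 6 fell, against 9.25% of all genes, and 2 did not pass.

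**Figure D2:**
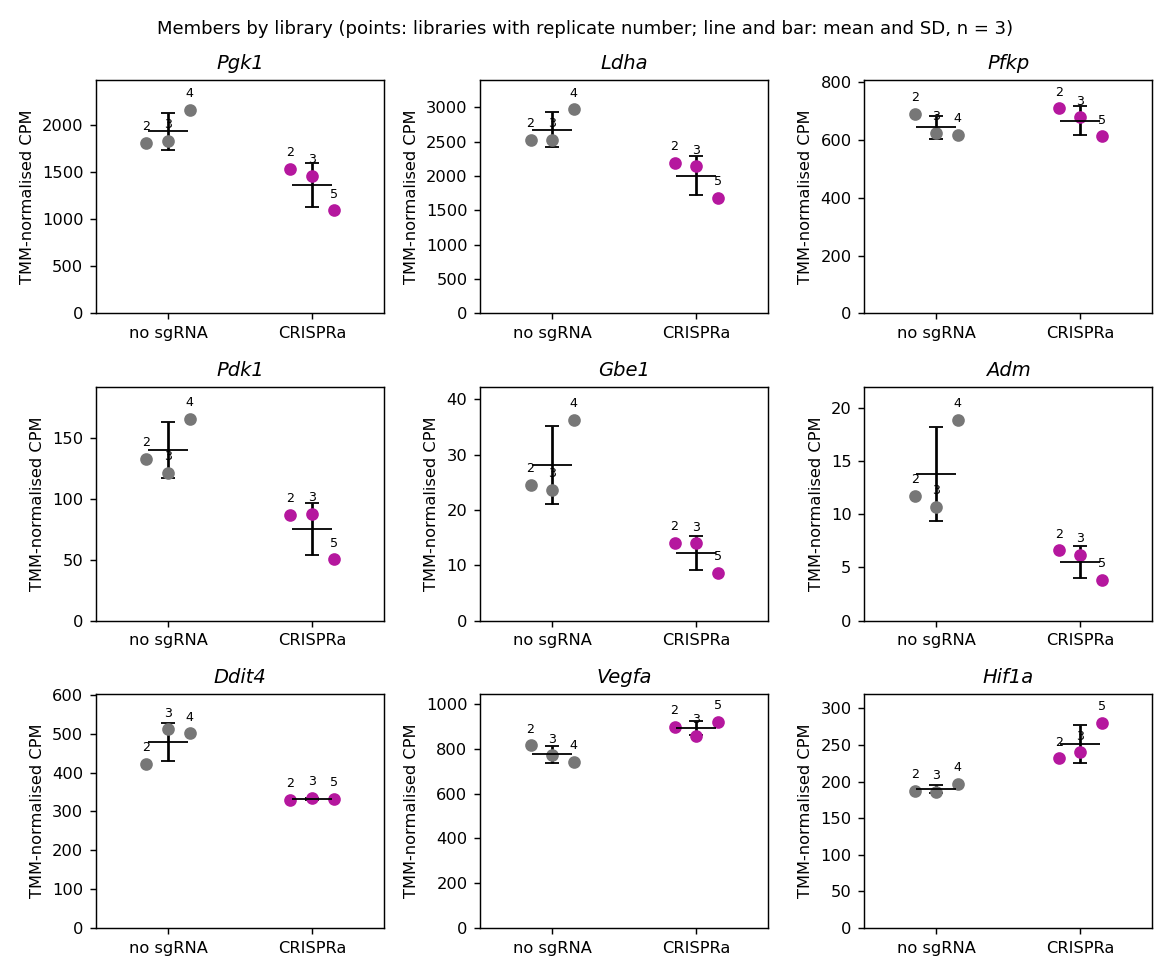
TMM-normalised CPM of 9 genes in each library (points, with replicate numbers) with the mean and SD of 3 libraries per group. CRISPRa replicate 5 is lowest and no-sgRNA replicate 4 highest for Pgk1, Ldha, Pdk1, Gbe1 and Adm, CRISPRa lies within 329 to 335 CPM for Ddit4, and Vegfa and Hif1a are higher in all 3 CRISPRa libraries.

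Among the HIF targets outside glycolysis, 12 of 17 fell and 1 rose, against 9.25% and 9.47% of all genes, and 4 did not pass. They ranged more widely than the enzymes, from -1.32 to 0.20 against -0.95 to 0.05, with an SD between genes of 0.41 against 0.24. Their medians, -0.53 and -0.50, lay close together. No test was made between the 2 groups of genes, since genes are not replicates of a condition. Without no-sgRNA replicate 4, 7 of the 17 fell and none rose, where 6.3% of all genes fell and 7% rose. DESeq2 on all 6 libraries called 8 lower, against 9.74% of all genes.

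The oxygen-sensing hydroxylase Egln1 (PHD2), itself induced by HIF-1 in a feedback loop, fell from 375 to 509 CPM in the controls to 275 to 329.8 CPM (-0.50, SE 0.10, adjusted p 0.00257, and -0.29 in the 4 libraries). Egln3 was scarcely expressed, with at most 18 counts, and gave no call (adjusted p 0.46). Car9, a carbonic anhydrase often used as a hypoxia marker, was also low, at 1.60, 2.36 and 1.60 CPM against 2.88, 1.92 and 1.67 CPM (-0.22, SE 0.32, adjusted p 0.683).

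Ndufa4l2, Higd1a, Bnip3, Bnip3l and Ak4 encode proteins of mitochondria, and 4 of these 5 fell, against 9.25% of all genes. Ndufa4l2, whose product HIF-1 is known to use to lower complex I activity (chromosome 10, 127514967 to 127517154), stood at 43.8, 39.4 and 13.4 CPM against 59.5, 72.2 and 94.8 CPM. CRISPRa replicate 5 was far below the other CRISPRa libraries, and all 3 were below the controls (-1.23, SE 0.28, adjusted p 0.0076). In the 4 libraries its log2 fold change was -0.66 (adjusted p 1.88e-05), while with DESeq2 the 6 libraries did not pass (adjusted p 0.0845). Higd1a, an inner-membrane protein of the hypoxia response, was at 46.2, 48.8 and 31.4 CPM against 66.2, 74.6 and 95.9 CPM (-0.91, SE 0.15, adjusted p 0.000714). Higd1a measured -0.57 in the 4 libraries (adjusted p 1.96e-05).

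Bnip3, a mitophagy receptor, stood at 157, 156 and 81.8 CPM against 208, 184 and 280.3 CPM (-0.77, SE 0.19, adjusted p 0.0117). Without no-sgRNA replicate 4 its adjusted p was 0.0775, and with DESeq2 it was 0.0878. Without CRISPRa replicate 5 the decrease of Bnip3 was smaller (-0.51, adjusted p 0.0146), and in the 4 libraries smaller again (-0.32, adjusted p 0.000356). Of its 50-base words 47.2% are shared with other genes, and exons on the opposite strand cover 22.25% of Bnip3. Its relative Bnip3l was at 207, 222 and 151 CPM against 267, 248 and 330.3 CPM (-0.54, SE 0.12, adjusted p 0.00659, and -0.26 in the 4 libraries). Of the 50-base words of Bnip3l 20.8% are shared with other genes. Ak4, a mitochondrial adenylate kinase, lay below the controls in all 3 CRISPRa libraries but did not pass (-0.21, adjusted p 0.114).

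The prolyl 4-hydroxylase subunits P4ha1 and P4ha2 modify collagen. P4ha2 was at 297, 298 and 183 CPM against 359, 367 and 480.2 CPM (-0.63, SE 0.15, adjusted p 0.00846), and without no-sgRNA replicate 4 its adjusted p was 0.0531, and with DESeq2 0.0625. P4ha1 fell by 0.43 (SE 0.11, adjusted p 0.0145). P4ha2 measured -0.29 and P4ha1 -0.17 in the 4 libraries (adjusted p 8.29e-05 and 0.0094). Ero1l, an oxidase of the endoplasmic reticulum, overlapped between groups at 467 to 514 CPM against 472 to 611 CPM (adjusted p 0.374).

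The secreted factors went opposite ways. Adm, which encodes the vasodilator peptide adrenomedullin (chromosome 7, 110627661 to 110629820), had the largest decrease of the 43 genes. It stood at 6.59, 6.16 and 3.82 CPM against 11.7, 10.7 and 18.8 CPM, 2.49-fold lower (log2 -1.32, SE 0.23, adjusted p 0.000991). In the 4 libraries its log2 fold change was -0.81 (adjusted p 0.00103). Vegfa, the vascular growth factor (chromosome 17, 46016993 to 46032369), was at 898, 858 and 920.2 CPM against 816, 771 and 742 CPM. All 3 CRISPRa libraries were above all 3 controls, a 1.15-fold increase (log2 0.20, SE 0.06, adjusted p 0.0355). The Vegfa call was lost in 5 of the 6 fits that left out a library, with adjusted p from 0.0574 (without CRISPRa replicate 3) to 0.114 (without no-sgRNA replicate 3). It was 0.0940 without CRISPRa replicate 2, 0.0638 without CRISPRa replicate 5 and 0.0591 without no-sgRNA replicate 4, while it held in the 4 libraries (0.15, adjusted p 0.0137).

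Ddit4, Kdm3a and Mxi1 fell without the deep trough in CRISPRa replicate 5. Ddit4, which encodes the mTORC1 inhibitor REDD1 (chromosome 10, 59949669 to 59951834), was nearly level across the CRISPRa libraries at 329, 335 and 333 CPM against 422, 512 and 502 CPM. Its log2 fold change was -0.53 (SE 0.07, adjusted p 0.000184) in 6 libraries and -0.49 (adjusted p 6.38e-06) in 4. Kdm3a, a histone H3 lysine demethylase, fell by 0.43 (SE 0.09, adjusted p 0.00494), with CRISPRa replicate 5 its highest CRISPRa library at 89.4 CPM, and by 0.32 in the 4 libraries (adjusted p 0.000799). Mxi1, an antagonist of MYC, fell by 0.25 (SE 0.08, adjusted p 0.0337) and did not pass in the 4 libraries (-0.15, adjusted p 0.133).

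Ankrd37, an ankyrin-repeat gene induced by HIF-1, was at 2.32, 2.82 and 2.13 CPM against 4.98, 3.00 and 7.33 CPM (-1.08, SE 0.29, adjusted p 0.0172). Its controls varied more than its CRISPRa libraries. The call was lost without no-sgRNA replicate 4 (-0.72, adjusted p 0.115), without CRISPRa replicate 5 (-0.98, adjusted p 0.0534) and in the 4 libraries (-0.63, adjusted p 0.143). Exons on the opposite strand cover 26.4% of Ankrd37, and whether the counting used strand is not given in the sources used here.

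**Figure D3:**
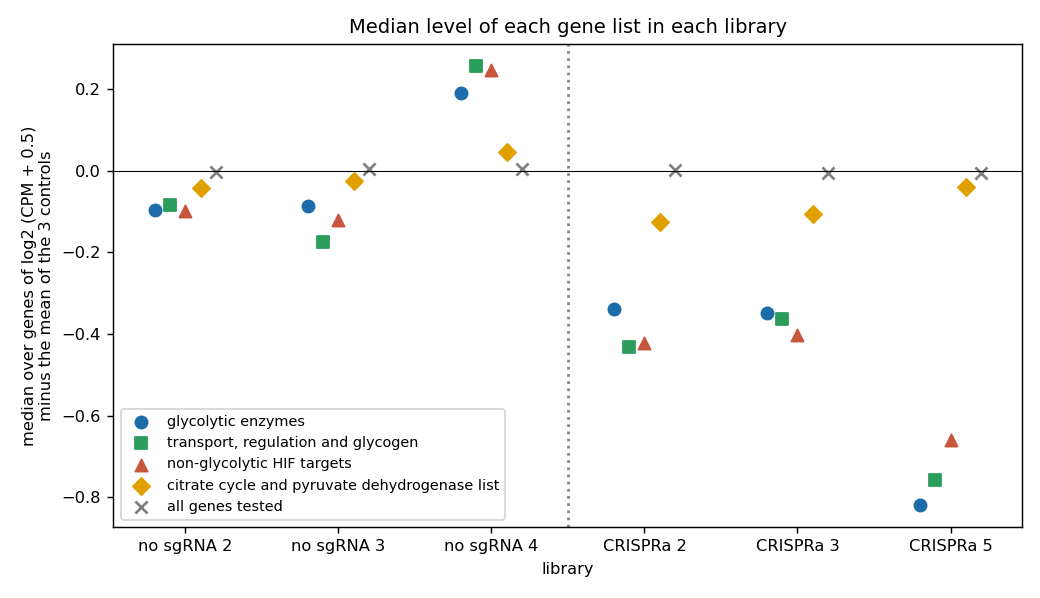
Median over the tested genes of a list of log2 (CPM + 0.5) minus the mean of the 3 controls, for each library. The 3 lists of glycolysis and HIF genes lie below 0 in every CRISPRa library, lowest in replicate 5 (-0.82 for the enzymes), and above 0 in no-sgRNA replicate 4, while all genes tested stay near 0.

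Hif1a rose, as did Vegfa, while 12 of the 17 HIF targets fell, against 9.25% of all genes. Hif1a (chromosome 12, 73901375 to 73947530) stood at 232, 240.2 and 280.4 CPM against 188, 186 and 197 CPM. Every CRISPRa library was above every control, and replicate 5, lowest for most enzymes, was the highest for Hif1a. The increase was 1.32-fold (log2 0.40, SE 0.07, adjusted p 0.00172) and 0.34 in the 4 libraries (adjusted p 3.45e-05). It passed in all 18 alternatives fitted, with log2 fold changes from 0.32 to 0.47. These are transcript levels, and HIF-1α protein was not measured.

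The spread between libraries was larger for these genes than for the transcriptome. The median SD of log2 CPM within the CRISPRa group was 0.26 for the enzymes and 0.20 for the HIF targets, against 0.12 for all genes tested. Within the controls it was 0.16, 0.23 and 0.13. Relative to the mean of replicates 2 and 3, CRISPRa replicate 5 was below for 15 of 16 enzymes, with a median difference of -0.45 on the log2 scale. No-sgRNA replicate 4 was above the mean of its replicates 2 and 3 for 15 of 16 enzymes, with a median of 0.28. The difference between the groups in replicates 2 and 3 had a median of -0.25, so CRISPRa replicate 5 differed from its own group by more than replicates 2 and 3 differed between groups. For the HIF targets the medians were -0.22, 0.37 and -0.29. The labels give no batch that sets these 2 libraries apart.

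**Figure D4:**
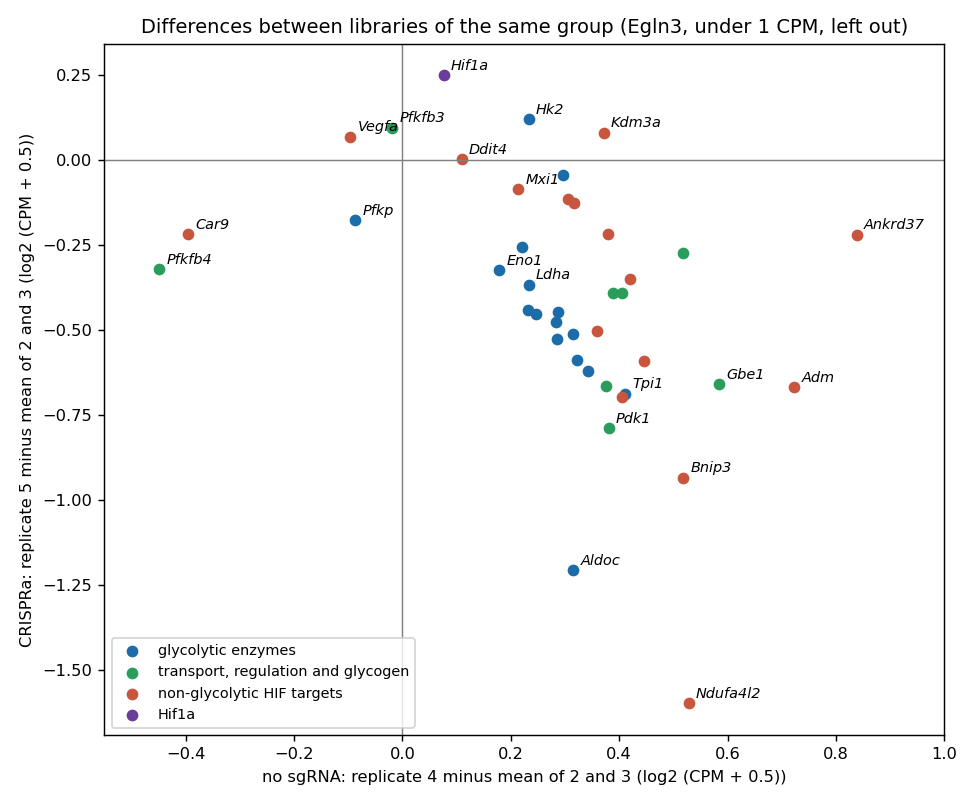
For each tested gene except Egln3, CRISPRa replicate 5 minus the mean of CRISPRa replicates 2 and 3 (vertical, log2) against no-sgRNA replicate 4 minus the mean of no-sgRNA replicates 2 and 3 (horizontal, log2). Most genes lie at the lower right, low in the first and high in the second, with Ndufa4l2 (-1.60) and Aldoc (-1.21) lowest, while Ddit4, Kdm3a, Vegfa and Hif1a lie at or above 0 on the vertical axis.

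Other genes of the pathways were compared for context. Of 14 genes of the HIF machinery 12 were tested and 1 was called in either direction, against 18.7% of all genes. Cited2, which encodes a competitor of HIF-1α for the coactivators CBP and p300, fell by 0.43 (SE 0.07, adjusted p 0.000479). Arnt (-0.09, adjusted p 0.470) and Vhl (-0.18, adjusted p 0.0971) did not pass. Hif3a, at 0.49 to 2.00 CPM, had the largest difference of this list and did not pass either (-1.12, SE 0.43, adjusted p 0.0832). In the authors' deposited comparison 3 of these 12 genes were lower, against 13.8% of all genes there. They were Cited2, Hif3a (Wald adjusted p 0.0109) and Vhl (0.0250). Epas1, which encodes HIF-2α, and Arnt2 had 0 counts in every library, so any level was under the 3-count limit. Of 19 further HIF targets 17 were tested, 7 fell and 3 rose, against 9.25% and 9.47% of all genes. Their median log2 fold change was -0.18, against -0.53 for the 17 HIF targets among the 43 genes. The largest of each direction were Fam162a (-0.85, SE 0.15, adjusted p 0.000978), a mitochondrial protein, and Angptl4 (1.02, SE 0.20, adjusted p 0.00209), a lipoprotein lipase inhibitor. Hmox1, heme oxygenase, also rose (0.58, SE 0.13, adjusted p 0.00549).

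Of 25 less common glycolysis, lactate and glycogen genes 20 were tested, 1 rose and 1 fell: Hkdc1 (1.37, SE 0.39, adjusted p 0.0243) and Slc2a4 (-1.63, SE 0.52, adjusted p 0.0417), both at low levels. The median of the 20 was -0.0713, and the shares of all genes were again 9.47% and 9.25%. Hkdc1 had 60 to 117 counts with CRISPRa and 16 to 44 without the guide, and Slc2a4 had 6 to 18 and 26 to 48. Neither passed in the 4 libraries (adjusted p 0.104 and 0.0867). A further list held 12 genes of the citrate cycle and pyruvate dehydrogenase and the coactivator gene Ppargc1a, which was not tested. Of the 12, 3 fell and 1 rose, against 9.25% and 9.47% of all genes, with a median of -0.0922. The largest changes there were in Fh1, fumarase (-0.40, SE 0.08, adjusted p 0.00421), and Ogdh, a subunit of oxoglutarate dehydrogenase (0.36, SE 0.07, adjusted p 0.00354).

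The authors' deposited table was computed by them over 8 samples. Of the 41 genes with an adjusted p in the authors' deposited table, 23 were lower at under 0.05 and 2 were higher, against 13.8% and 14.8% of all genes there. The authors' deposited table gives a log2 fold change of -1.15 (adjusted p 0.0038) for Adm, -0.99 (0.00202) for Gbe1, 0.41 (1.48e-09) for Hif1a and 0.16 (0.00418) for Vegfa. It shares 6 of its 8 samples with the counts used here, so it is not an independent comparison. Of the 32 decreases called here, 9 lay above 0.05 in the authors' deposited table: Gapdh (adjusted p 0.0518), P4ha2 (0.0598), Hk2 (0.0598), Bnip3 (0.0620), Mxi1 (0.0664), Aldoa (0.0771), P4ha1 (0.0901), Gys1 (0.130) and Slc2a1 (0.156).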

How the data were processed

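Poly(A)-enriched RNA of transfected Neuro2a cells was counted per gene, in a table with 3 CRISPRa and 3 no-sgRNA libraries. The authors deposited whole-number read counts with no normalisation. STAR 2.5.1b, featureCounts, DESeq2 and build mm10 (GRCm38) are named, per the submitters' processing notes. Strand use, annotation and multi-mapping are not given in the sources used here. The labels list 8 samples, of which CRISPRa replicate 1 and replicate 5 without the guide had no counts analysed here. The exon length in the same table gave levels per kilobase. A second deposited table holds the authors' comparison of 8 samples: a signal (mean normalised count), log2 fold changes, a Wald score and p-values. Its direction is not stated and was read as CRISPRa against no sgRNA from the interferon-response genes.

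Counts were tested with edgeR 4.0.16 (R 4.3.3): filterByExpr, TMM scaling, glmQLFit and glmQLFTest, Benjamini-Hochberg adjustment over all 15117 genes, and a call at an adjusted p under 0.05. The SE is the log2 fold change divided by the square root of F. The fit was tested on simulated data. The members and lists were chosen with earlier results of these data known. Genes given library by library are the 20 called members with the largest fold changes plus Hif1a, Hk2, Pgk1, Ldha, Gapdh, Vegfa and Car9 whatever their result, which came to 26 genes with Pgk1 under both parts. Other members, Pfkp among them, and Hmox1, Arnt, Vhl and Hif3a, were named after their values were seen. Fits without each library, on the 4 libraries numbered 2 and 3, with a replicate block, with DESeq2 1.42.0, with limma-voom (limma 3.58.1) and with other scalings, filters and thresholds were alternatives. A correction for gene length in each library was a further one, and one for GC content (both lowess, span 0.2) was added after the data were seen.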

Additional observations from a re-analysis of the deposited data

How the results depend on the processing

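The number of the 43 genes called changed was 34, against 18.7% of all genes tested. It stayed within 1.5 times of 34 in 18 of 20 alternatives. The increases among them went from 2 to 1 in 6 alternatives (without CRISPRa replicate 2, 3 or 5, without no-sgRNA replicate 3 or 4, and at an adjusted p under 0.01), where Hif1a alone was left. The number called fell to 22 at an adjusted p under 0.01, with 9 enzymes, 8 HIF targets and 1417 of all genes, where the threshold itself is the cause. Leaving out 1 library gave 21 to 33 of the 43 genes, 9 to 14 enzymes and 7 to 13 HIF targets, all 3 lowest without no-sgRNA replicate 4. All genes called then numbered 1987 (without no-sgRNA replicate 3) to 2518. The median log2 fold change was then -0.57 to -0.34 for the enzymes and -0.59 to -0.41 for the HIF targets. DESeq2 called 25 of the 43, and 3093 of all 15117 genes tested. At an adjusted p under 0.1 all genes called numbered 3855.

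The replicate block uses the 4 libraries numbered 2 and 3, and the labels do not say that equal numbers share a culture. Deviations from the group means had correlations of -0.028 for number 2 and -0.023 for number 3, so equal numbers did not vary together. With the block 32 of the 43 genes were called, and 3170 of all 15305 genes tested. The median was -0.25 for the enzymes and -0.29 for the HIF targets. The same 4 libraries without the block gave 31 genes, 2830 of all 15305, and medians of -0.25 and -0.29. The replicate block with the gene-length trend removed gave -0.21 and -0.28. Leaving out 1 library moved the log2 fold change of Car9 from -0.42 to 0.042, with the change of sign without no-sgRNA replicate 2 (adjusted p 0.951). None of the other 25 genes of the naming rule changed sign in the alternatives fitted. Among the other members, Hk1, Pfkfb3 and Ero1l, not called in the 6 libraries, changed sign in the 4 libraries. Other scalings, filters, limma-voom and the length or GC correction gave 33 or 34 genes. With 3 libraries a group, each test rests on few values.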
